A study of Mus musculus with 14 samples.

Results

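Blastocysts of the micromanipulation control were compared with the oviduct group on 6 of the 14 bead arrays of the series, 3 per group. Every probe with a detection p under 0.01 on at least 2 of the 14 arrays was taken, which kept 10975 of 25697 probes. Each gene symbol was read from its brightest probe on average, and a probe with no gene symbol stood for itself, which gave 8669 units, 8025 of them with a symbol. The study examined mouse blastocysts after injection of sperm and culture of the embryo, and its other groups are HTF/MultiBlast (3 arrays), ISM1/ISM2 (3 arrays) and KSOM(aa) (2 arrays). In the micromanipulation control group the labels give that phrase also as the cell type, and state neither the manipulation done nor the medium the samples grew in. In the oviduct group the cell type is likewise labelled oviduct, with no manipulation or culture named. Strain, age and pooling of embryos are not given in the labels. The 3 control arrays are numbered 1 to 3 in their titles whereas each description calls its sample replicate 1, and the series text calls replicates biological. The controls may therefore be repeats of 1 preparation, and the differences among them may be technical only. The p-values and standard errors (SE) below rest on 1 spread per unit, shared over all 14 arrays. They therefore do not measure the spread of the 6 arrays compared.

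The blastocyst is the stage at which a mouse embryo implants. Its outer trophectoderm pumps fluid into the cavity and later forms much of the placenta, and its inner cell mass sorts into epiblast, which gives the body, and primitive endoderm, which gives yolk sac tissues. Embryos that are handled or cultured outside the tract are commonly compared with embryos grown in vivo at this stage, and imprinted genes, metabolic enzymes and stress genes are among those most often examined. In bulk samples such as these, fewer cells of a type and less RNA per cell cannot be told apart.

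Both groups carried transcripts of all 3 blastocyst lineages, although *Gata4* of the primitive endoderm was detected on 1 oviduct array only. The summed level of 6 trophectoderm markers lay between 15.19 and 15.26 log2 on the control arrays against 15.16 to 15.31 on the oviduct arrays. That of 6 primitive endoderm markers lay between 13.53 and 13.54 against 13.2 to 13.46, which did not overlap. A sum of intensities rests mostly on its brightest members, here *Gata6* and *Lama1*. *Gata6* had 12.13 to 12.44 against 11.27 to 11.42. *Amn* went the other way, at 9.86 to 10.07 against 10.49 to 10.95, and *Lama1*, *Sox17* and *Pdgfra* overlapped. The summed level of 5 epiblast markers lay between 11.91 and 12.06 on the control arrays against 11.29 to 11.47 on the oviduct arrays. These ranges did not overlap either, and the sum follows *Nanog*, by far the brightest, at 11.72 to 11.91 against 10.85 to 11.19. *Klf2* went the other way, at 7.18 to 7.49 against 7.6 to 8.19, and *Pou5f1* and *Sox2* overlapped. Of the epiblast markers *Nanog*, *Pou5f1*, *Sox2* and *Klf2* were detected on all 6 arrays, and *Fgf4* on none. Of 5 markers of oviduct epithelium, *Ovgp1*, the oviduct glycoprotein, and *Pax8*, *Krt5* and *Tppp3* were detected on 0 of 14 arrays and *Foxj1* on 1 control array, and all 5 stroma markers were detected on 0 of 14. Blood and immune markers differed: their summed level ran from 6.8 to 7.11 on the control arrays and from 7.44 to 9.03 on the oviduct arrays, with *Ptprc*, *Hba-a1* and *S100a8* detected on 0 of 14. *S100a9* was detected on all 3 oviduct arrays and on 1 control array, and *Lyz2* on 1 oviduct array, at 8.37.

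The control arrays lay close together and the oviduct arrays did not. The root mean square log2 difference between 2 control arrays was 0.345 to 0.365, against 0.621 to 0.835 between 2 oviduct arrays. Oviduct replicate 2 stood nearer to each control array, at 0.5, 0.508 and 0.51, than to oviduct replicates 1 and 3, at 0.621 and 0.665. The other oviduct arrays lay 0.697 to 0.759 from the controls. Over units, the SD within a group had a root mean square of 0.249 in the control and 0.504 in oviduct, and 78% of units (6765) had the larger SD in oviduct. Oviduct replicate 1 had the lowest median intensity of the series, 96.6, and the fewest detected probes, 8533. Oviduct replicate 2 had the highest of both, 152 and 10188, while the controls had medians of 126 to 147 and 9174 to 9352 detected probes. The part of signal strength in the differences below was not tested.

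**Figure D1:**
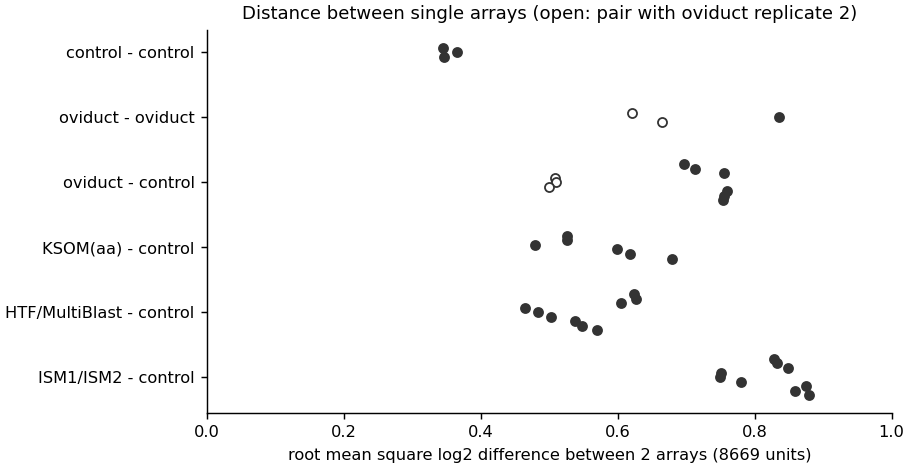
Root mean square log2 difference between single arrays over 8669 units, with 1 point per pair of arrays and a row per pair of groups. Open circles mark pairs with oviduct replicate 2, which lie at 0.5 to 0.51 from the controls and at 0.621 and 0.665 from the other oviduct arrays.

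Between control and oviduct, 37 units passed an adjusted p under 0.05 in limma with Benjamini-Hochberg adjustment, which is 0.427% of the units tested. In the control, 13 were higher (0.15%) and 24 lower (0.277%). Their fitted differences reached at least 2-fold for 35 of them, and 35 had a gene symbol, 11 of the rises and all 24 falls. All 37 had control and oviduct arrays that did not overlap, which held for 23.9% of all units. At an unadjusted p under 0.05 stood 1476 units (17%), 851 higher (9.82%) and 625 lower (7.21%), and the median log2 difference over all units was 0.03. A further 392 units differed by at least 2-fold in the fit without passing. A log2 difference had a median SE of 0.256 over units.

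The list of passing units changed with the arrays used and with the groups in the fit. With the 3 controls averaged to 1 sample, as repeats of 1 preparation would require, 0 units passed and 357 had an unadjusted p under 0.05. Fitted on the 6 arrays alone, 3 passed, the falls of *Phlda2*, *Pfkp* and *Ctsll3*. Without control replicate 1 only *Phlda2* passed of the 37. Without replicate 2 it was joined by *Crym*, *Tpm2* and *Hoxc6*, and without replicate 3 by *Crym*, *Tpm2*, *Msx1*, *1300017J02Rik*, *Scnn1b* and *S100a9*. The other 29 passed in none of the 3 fits with a control array left out. Leaving out oviduct replicate 1, 2 or 3 kept 31, 35 and 25 of the 37, among 93, 140 and 38 passing units. With replicate 2 as the only oviduct array, 2 units passed, 1 of them among the 37, *Crym*. No passing unit reversed its direction in these fits.

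**Figure D2:**
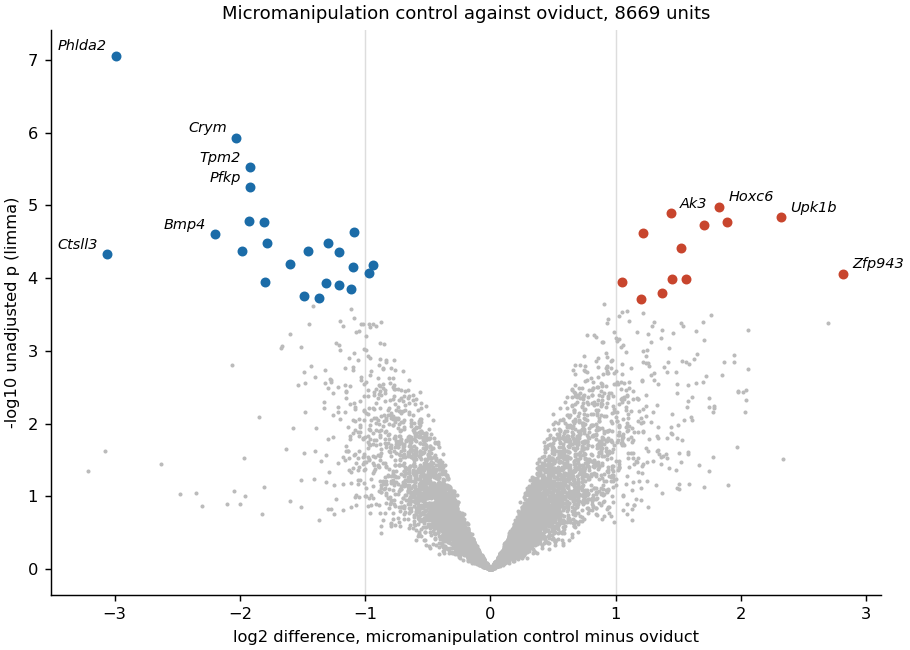
Log2 difference (control minus oviduct, horizontal) against the negative log10 of limma's unadjusted p (vertical) for 8669 units. Coloured points are the 37 that passed, 13 to the right and 24 to the left, and the pale vertical lines mark 2-fold.

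*Phlda2*, an imprinted gene expressed from the maternal allele that restrains growth of the placenta, gave the smallest p of the comparison. Its log2 intensity was 8.33, 7.66 and 7.96 on the control arrays and 11.02, 10.66 and 11.24 on the oviduct arrays. Every control array lay more than 2-fold below every oviduct array. The difference was -2.99 ± 0.29 (SE), 7.95-fold, with an adjusted p of 0.000766 (limma). It was the 1 unit that passed in all 6 fits with an array left out, with a highest adjusted p of 0.00964. Its promoter is shown because this fall was the most stable of the comparison. The window, from RefSeq on GRCm38.p6, holds the 250 bases before the annotated start at chr7:143502525-143502774 on the minus strand, with the TATA box letters TATAAA in capitals, 30 bases before the start.

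Phlda2: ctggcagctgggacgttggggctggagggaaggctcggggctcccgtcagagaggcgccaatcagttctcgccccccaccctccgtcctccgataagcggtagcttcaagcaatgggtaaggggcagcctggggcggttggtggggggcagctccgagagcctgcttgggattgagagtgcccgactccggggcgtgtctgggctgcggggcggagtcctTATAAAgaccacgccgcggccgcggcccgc

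The letters TATAAA, on either strand, were found in the promoter windows of 6 of the 29 passing genes that the RefSeq table holds (20.7%). They were found in 7.64% of 6622 tested genes and 14.3% of all 27025 genes in the table. The *Phlda2* window holds 21 CG pairs, against a median of 15 in the windows of tested genes. A match of letters is a description only.

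Neighbours of *Phlda2* in the imprinted Kcnq1 cluster did not pass. *Slc22a18*, a membrane transporter, stood at 5.51, 5.65 and 5.53 in the control and at 6.69, 6.5 and 6.7 in oviduct. Its arrays did not overlap, and the difference of -1.07 ± 0.24 had an adjusted p of 0.0666. *Cdkn1c*, an inhibitor of the cell cycle, overlapped between the groups, with -0.31 (95% interval -1.19 to 0.57). Of 30 measured imprinted genes 0 passed higher and 1 lower, and their median was -0.02. *Grb10*, an adaptor that restrains growth signals, had -1.02 ± 0.37 and an adjusted p of 0.194, *Sfmbt2*, a paternally expressed placental regulator, 1.28 ± 0.34 and 0.106. *Igf2* (0.02) and *Mest* (0.33), both growth-promoting and paternally expressed, had intervals of -0.52 to 0.55 and -0.54 to 1.2.

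The signalling molecule *Bmp4* and the transcription factor *Msx1* were lower in the control. *Bmp4*, a ligand that epiblast makes and that acts on neighbouring trophectoderm, had 6.57, 6.62 and 6.88 in the control and 8.38, 8.96 and 9.34 in oviduct. The groups lay apart by more than the range within either. *Bmp4* fell by 2.20 ± 0.35 on the log2 scale (adjusted p = 0.0154), 4.61-fold. *Msx1*, a homeobox factor that responds to BMP signals in many tissues, had 5.96, 5.3 and 6.38 against 7.51, 7.56 and 8.34 (-1.93 ± 0.29, adjusted p = 0.0146), and 2 of its control arrays were above background. *Fgfrl1*, a receptor of fibroblast growth factors without the kinase part, and *Dusp14*, a phosphatase of MAP kinases, fell by 1.30 and 1.21. Without an array, the adjusted p rose to at most 0.0842 for *Bmp4*, 0.0776 for *Msx1*, 0.128 for *Fgfrl1* and 0.13 for *Dusp14*.

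Other transcription factors moved in both directions. *Hoxc6*, a homeobox gene that later patterns the body axis, had 6.94, 6.09 and 6.77 in the control and 4.47, 5.2 and 4.63 in oviduct. It was detected on all control arrays and on 1 oviduct array, and rose by 1.83 ± 0.27 (adjusted p = 0.0146). *Zfp943*, a zinc finger gene, had the largest rise among passing genes, with 8.57, 8.69 and 8.56 against 5.77, 4.95 and 6.65. Its control arrays agreed closely, and the spread lay in oviduct. The difference was 2.82 ± 0.51, 7.05-fold, with an adjusted p of 0.0289. *Usf1*, a factor that binds the E-box CACGTG, fell by 1.31 ± 0.24 (adjusted p = 0.0326), and *Nr2f6*, an orphan nuclear receptor, by 1.21 ± 0.23 (adjusted p = 0.0335). *Usf1*, *Nr2f6*, *Fgfrl1*, *Dusp14*, *Lrrk1*, *Cotl1*, *Rbmxl2* and *Samd4b* are named beyond the 15 largest falls, after their values were seen. Without an array the adjusted p rose to at most 0.0583 for *Hoxc6*, 0.142 for *Zfp943* and 0.169 for *Usf1* and *Nr2f6*.

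Since *Usf1* was among the falls, the promoter windows were searched for its letters, a motif chosen after the values were seen. CACGTG, which reads the same on both strands, was found in 7 of the 29 passing genes in the table (24.1%), 3 of them rises and 4 falls. It was found in 10.3% of the tested genes and 6.86% of all genes there. A gene of each direction is shown with the letters in capitals. The *Bmp4* window is chr14:46390670-46390919 on the minus strand and holds them 188 bases before the start, and the *Zfp943* window is chr17:21962309-21962558 on the plus strand and holds them 46 bases before it, both from RefSeq on GRCm38.p6.

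Bmp4: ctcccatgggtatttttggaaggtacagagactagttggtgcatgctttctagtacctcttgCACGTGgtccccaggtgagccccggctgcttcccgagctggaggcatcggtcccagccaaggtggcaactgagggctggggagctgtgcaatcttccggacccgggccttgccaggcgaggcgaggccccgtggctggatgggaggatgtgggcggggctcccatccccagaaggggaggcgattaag

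Zfp943: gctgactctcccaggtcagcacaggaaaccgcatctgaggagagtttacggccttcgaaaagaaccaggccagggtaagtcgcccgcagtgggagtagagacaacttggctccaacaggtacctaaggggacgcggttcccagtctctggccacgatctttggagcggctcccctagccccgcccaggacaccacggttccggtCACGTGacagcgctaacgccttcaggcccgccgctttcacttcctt

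The letters thus stood before a gene that fell and before a gene that rose, and binding of any factor was not measured.

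Among metabolic genes that passed, *Pfkp*, *Sod1*, *Hpgd* and *Plpp1* were lower in the control and *Ak3* was higher. *Pfkp*, a phosphofructokinase at the committing step of glycolysis, had 4.88, 4.82 and 4.7 in the control, detected on none, and 6.89, 6.66 and 6.6 in oviduct, detected on all. For a probe without detection in 1 group a lower bound of the fold is given. It sets the brighter mean against a floor, which on each array is the lowest signal of any detected probe or the value of the probe itself, whichever is higher. On that basis *Pfkp* was at least 2.55-fold lower (adjusted p = 0.0122). A second, dimmer *Pfkp* probe had -0.44 and an adjusted p of 0.48. *Ldha*, lactate dehydrogenase, had 7.9, 8.24 and 8.46 against 9.26, 9.22 and 9.75 and did not pass (-1.20 ± 0.26, adjusted p = 0.0619), nor did *Slc2a1*, a glucose carrier (-0.86 ± 0.22, adjusted p = 0.101), or *Pgam1*, phosphoglycerate mutase (-0.69 ± 0.23, adjusted p = 0.173). In all 3 the groups did not overlap, which held for 23.9% of all units. Of 17 measured genes of glycolysis and glucose uptake 0 passed higher and 1 lower, with a median of -0.15.

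*Sod1*, the cytosolic superoxide dismutase, had 11.46, 11.33 and 11.07 in the control and 12.38, 12.21 and 12.19 in oviduct. It fell by 0.97 ± 0.18 (adjusted p = 0.0289), with the arrays of each group close together. *Crym*, which binds thyroid hormone in the cytosol, had 6.94, 7.25 and 7.24 against 8.67, 9.39 and 9.47. Only *Phlda2* had a smaller p than *Crym* (-2.03 ± 0.24, 4.1-fold, adjusted p = 0.0051). *Ak3*, a mitochondrial adenylate kinase, rose, at 9.36, 9.63 and 9.69 against 8.09, 8.23 and 8.02 (1.44 ± 0.22, adjusted p = 0.0146). Its second probe had 0.62 and an adjusted p of 0.205. *Hpgd*, which breaks down prostaglandins, was detected on no control array and was at least 1.96-fold lower (4.54 ± 0.25 against 6.34 ± 0.62, SD, n = 3, adjusted p = 0.0326). *Plpp1*, a phosphatase of signalling lipids, had 8.84 ± 0.15 against 10.2 ± 0.65 (-1.37 ± 0.27, adjusted p = 0.0448), and a second probe -1.25 and 0.18. Without an array the adjusted p rose to at most 0.0575 for *Pfkp*, 0.0511 for *Crym*, 0.0776 for *Ak3*, 0.14 for *Sod1*, 0.176 for *Hpgd* and 0.192 for *Plpp1*.

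**Figure D3:**
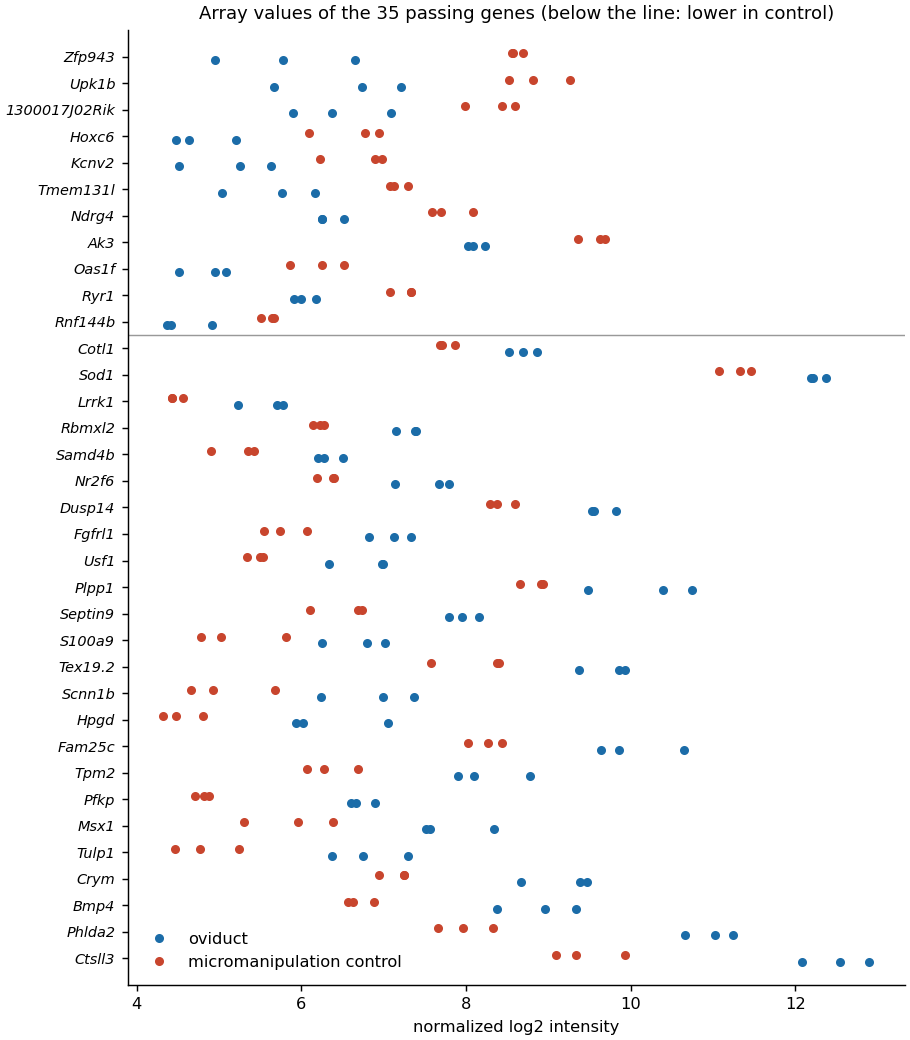
Normalized log2 intensity of the 35 passing genes with a symbol on the 3 control and 3 oviduct arrays, 1 row per gene and 1 point per array, rises above the line and falls below it. Control and oviduct points do not overlap in any row, and oviduct points spread more than control points in rows such as *Zfp943* (SD 0.85 against 0.07).

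Genes of the actin and septin cytoskeleton that passed were lower in the control. *Tpm2*, a tropomyosin that lies along actin filaments, had 6.27, 6.69 and 6.07 in the control and 7.9, 8.1 and 8.78 in oviduct. The lowest oviduct array stood above the highest control array by more than the range of the controls (-1.92 ± 0.25, adjusted p = 0.00861). *Septin9*, a filament-forming GTPase, fell by 1.46 ± 0.25 (adjusted p = 0.0192), and *Cotl1*, which binds actin, by 0.94 ± 0.16 (adjusted p = 0.0247). *Myh9*, a non-muscle myosin, overlapped between the groups (-1.30 ± 0.47, adjusted p = 0.194). Of 26 measured genes of the cell cortex, annexins and membrane repair, 0 passed higher and 1 lower, *Tpm2*, with a median of -0.25. *Des*, a muscle filament gene in the marker list, had 5.71 to 5.99 in the control and 4.74 to 5.12 in oviduct, and of the other smooth muscle markers *Acta2* was detected on 1 control array and 2 oviduct arrays, *Myh11* and *Cnn1* on 0 of 14. *Lrrk1*, a large kinase, was detected on no control array and was at least 1.15-fold lower (4.47 ± 0.07 against 5.57 ± 0.29, SD, n = 3, adjusted p = 0.0154).

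Membrane proteins and channels moved both ways. *Upk1b*, a tetraspanin known from the bladder lining, had 8.52, 9.26 and 8.81 in the control and 6.74, 7.21 and 5.67 in oviduct. Its groups lay apart despite a wide spread in oviduct, and the rise was 2.32 ± 0.35 (adjusted p = 0.0146). *Ryr1*, a calcium release channel of muscle, rose by 1.22 ± 0.19 (adjusted p = 0.0154), with 7.33, 7.08 and 7.33 against 5.91, 6.18 and 6.0. Its other 2 probes had 1.32 (adjusted p = 0.02) and 0.9 (adjusted p = 0.0863). *Kcnv2*, a modifier subunit of potassium channels, rose by 1.56 ± 0.29 (adjusted p = 0.0323) and was detected on 3 control arrays and 1 oviduct array. *Scnn1b*, a subunit of the epithelial sodium channel, fell, at 4.92, 4.66 and 5.68 against 6.24, 6.99 and 7.37 (-1.78 ± 0.29, adjusted p = 0.018). It was detected on 1 control array and 3 oviduct arrays. Without an array the adjusted p rose to at most 0.0511 for *Tpm2*, 0.104 for *Septin9*, 0.149 for *Cotl1*, 0.0799 for *Lrrk1* and *Ryr1*, 0.0776 for *Upk1b*, 0.176 for *Kcnv2* and 0.123 for *Scnn1b*.

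*Ctsll3*, a cathepsin L-like protease, showed the largest difference of the passing genes. It had 9.34, 9.09 and 9.93 in the control and 12.08, 12.9 and 12.55 in oviduct. Each control array was more than 2-fold below each oviduct array, and the fall was 3.06 ± 0.52, 8.32-fold (adjusted p = 0.0193). *Tex19.2*, a germline gene, had 8.4, 8.38 and 7.58 against 9.86, 9.37 and 9.93 (-1.60 ± 0.28, adjusted p = 0.0247). Its relative *Tex19.1* had -1.15 ± 0.34 and did not pass (adjusted p = 0.126). *Rbmxl2*, an RNA-binding gene of the testis, fell by 1.10 ± 0.19 (adjusted p = 0.0255). Of 15 measured germline and X-linked testis genes 0 passed higher and 1 lower, with a median of 0.14. The left-out fits raised the adjusted p to at most 0.13 for *Ctsll3*, 0.109 for *Tex19.2* and 0.136 for *Rbmxl2*.

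*S100a9*, which binds calcium and is abundant in neutrophils, had 5.02, 4.78 and 5.81 in the control and 6.25, 6.8 and 7.01 in oviduct. It was detected on 1 control array and all oviduct arrays, and fell by 1.49 ± 0.29 (adjusted p = 0.044, up to 0.198 without an array). *S100a9* is itself 1 of the 5 blood and immune markers on the array summed above. Of the other 4, *Lyz2* was detected on 1 oviduct array and the rest on none, and the part of blood cells in the result was not tested. *Oas1f*, of the interferon-induced oligoadenylate synthetases, was detected on all control and no oviduct arrays and was at least 1.81-fold higher (6.21 ± 0.33 against 4.84 ± 0.3, SD, n = 3, adjusted p = 0.0407, up to 0.197 without an array). Of 13 measured interferon and class I antigen genes, a list without *Oas1f*, 0 passed and the median was 0.33. Of the 13, 11 had values above 0, beside 4584 of all 8669 units. Other lists leaned as far, such as cholesterol synthesis with 15 of 17 below 0. *Parp14*, an interferon-induced ADP-ribosyltransferase, had 7.52, 7.11 and 7.14 against 6.02, 6.54 and 4.29 (1.64 ± 0.45, adjusted p = 0.116).

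The remaining passing units have less settled roles. *1300017J02Rik* (1.89, 3.7-fold), *Tmem131l* (1.52, 2.86-fold) and *Ndrg4* (1.45, 2.74-fold) rose, with adjusted p of 0.0146, 0.0192 and 0.0323. *Rnf144b*, a ubiquitin ligase, was detected on all control and no oviduct arrays and was at least 1.19-fold higher (adjusted p = 0.0326). *Fam25c* fell by 1.81 (adjusted p = 0.0146), and *Samd4b*, an RNA-binding repressor of the Smaug family, by 1.11 (adjusted p = 0.0369). *Tulp1*, a tubby-like protein known from photoreceptors, was detected on no control array and was at least 2.71-fold lower (adjusted p = 0.0192). A pair of probes without a gene symbol rose, 1 of them from no detected oviduct array by at least 2.46-fold (adjusted p = 0.0146) and the other by 1.20 (adjusted p = 0.0452). None of these passed in all 6 fits with an array left out, in which their highest adjusted p ran from 0.0799 for *1300017J02Rik* to 0.197 for *Samd4b*.

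Regulators of the first lineages did not pass, though 2 came close. *Gata6*, which drives primitive endoderm, had 12.13, 12.2 and 12.44 in the control and 11.42, 11.34 and 11.27 in oviduct. *Nanog*, which drives epiblast, had 11.72, 11.89 and 11.91 against 10.85, 11.19 and 10.89. In both genes all control arrays lay above all oviduct arrays, by 0.91 ± 0.18 for *Gata6* (adjusted p = 0.0511) and 0.86 ± 0.21 for *Nanog* (adjusted p = 0.0959). Arrays of the 2 groups did not overlap in 23.9% of all units. Without oviduct replicate 1, a fit in which 93 units passed in place of 37, *Gata6* had an adjusted p just under the threshold (0.0472, limma). *Pou5f1*, the pluripotency factor, overlapped between groups (-0.97, 95% interval -2.18 to 0.24), and its second probe had -0.31 (limma, adjusted p = 0.65). In trophectoderm, *Cdx2* had 0.02 (-0.56 to 0.59), *Gata3* -0.11 (-0.59 to 0.36) and *Eomes* -0.37 (-0.8 to 0.06). *Sox17* of the primitive endoderm had 0.23 (-0.49 to 0.96), whereas its second probe went the other way, with -0.54 (limma, adjusted p = 0.405).

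By list, lineage genes as groups had few passing members. Of 20 measured primitive endoderm genes none passed and the median was -0.16. Epiblast and pluripotency genes had 0 higher and 1 lower of 23, *Bmp4*, with a median of -0.15. *Lefty2*, a Nodal inhibitor of the epiblast, did not pass (-0.88 ± 0.27, adjusted p = 0.142). Of 17 trophectoderm factors and 21 genes of junctions, keratins and cavity transport none passed, with medians of 0.02 and -0.09. *Ovol1*, a trophectoderm zinc finger factor, had 1.07 ± 0.29 (adjusted p = 0.116), *Tjp1*, a tight junction scaffold, 1.30 ± 0.54 (adjusted p = 0.249), and *Aqp3*, a water and glycerol channel, -0.98 ± 0.38 (adjusted p = 0.213).

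Stress and nutrient lists held no passing gene beyond *Sod1* and *Pfkp*. Over the 36 measured genes of the amino acid response, the targets of ATF4, none passed and the median was -0.10. *Slc7a3*, a carrier of cationic amino acids, had 10.76, 10.92 and 11.36 in the control against 11.39, 11.62 and 11.72 in oviduct, with an adjusted p of 0.335. *Nupr1*, a stress-induced chromatin protein, had 0.04 with an interval of -0.74 to 0.83. None of 14 immediate early genes (median -0.28), 21 p53 targets and apoptosis genes (-0.03), 19 chaperones (-0.12), 14 genes of the unfolded protein response (-0.11), 15 hypoxia genes (-0.02), 17 cholesterol synthesis genes (-0.27), 13 one-carbon genes (-0.31) and 6 osmolyte genes (0.22) passed. Antioxidant and glutathione genes had 0 higher and 1 lower of 22 (-0.19). Nor did any of 9 oocyte transcripts (0.16), 13 genes of DNA methylation and imprint protection (0.12), 27 of the cell cycle and replication (-0.01), 56 ribosomal proteins (-0.06) or 72 of the respiratory chain (0.09) pass, and the lysosome list had 0 higher and 1 lower of 24, *Ctsll3* (-0.05). Medians this close to 0 depended on the scaling: with arrays scaled to their 75th percentile those of the amino acid response (0.04), primitive endoderm (0.01), junctions (0.05), chaperones (0.05) and the unfolded protein response (0.13) lay above 0, and that of the germline list (-0.14) below it. In all, 7 of 27 lists had a passing member, each 1 fall. Over all units 0.277% passed as lower, a share of units that cannot be set against a count of lists. The lists were also written with earlier results of these data known.

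A pair of lists had medians farther from that of all units, and none of their members passed. Among 12 transcripts of the two-cell stage the median was -0.70. *Tcstv3*, which is active at that stage, had 5.08, 5.39 and 5.04 in the control and 9.41, 5.68 and 10.06 in oviduct. Oviduct replicate 2 was near the controls and the others far above them (-3.21 ± 1.45, adjusted p = 0.281), and *Tcstv1* behaved alike, with 8.25, 4.88 and 8.77 in oviduct. The 4 sex chromosome transcripts had a median of 1.26, all above 0. *Xist*, which silences an X chromosome in females, had 10.02, 9.07 and 8.98 against 7.98, 8.41 and 8.64, and the Y-linked *Eif2s3y* 10.7, 10.74 and 10.9 against 9.4, 10.21 and 8.18. Both genes were higher on every control array than on every oviduct array, and 23.9% of all units did not overlap in either direction. Their adjusted p in limma were 0.116 and 0.257. A second, dimmer *Xist* probe had 0.33 and an adjusted p of 0.488. The sex of the embryos is not given in the labels.

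**Figure D4:**
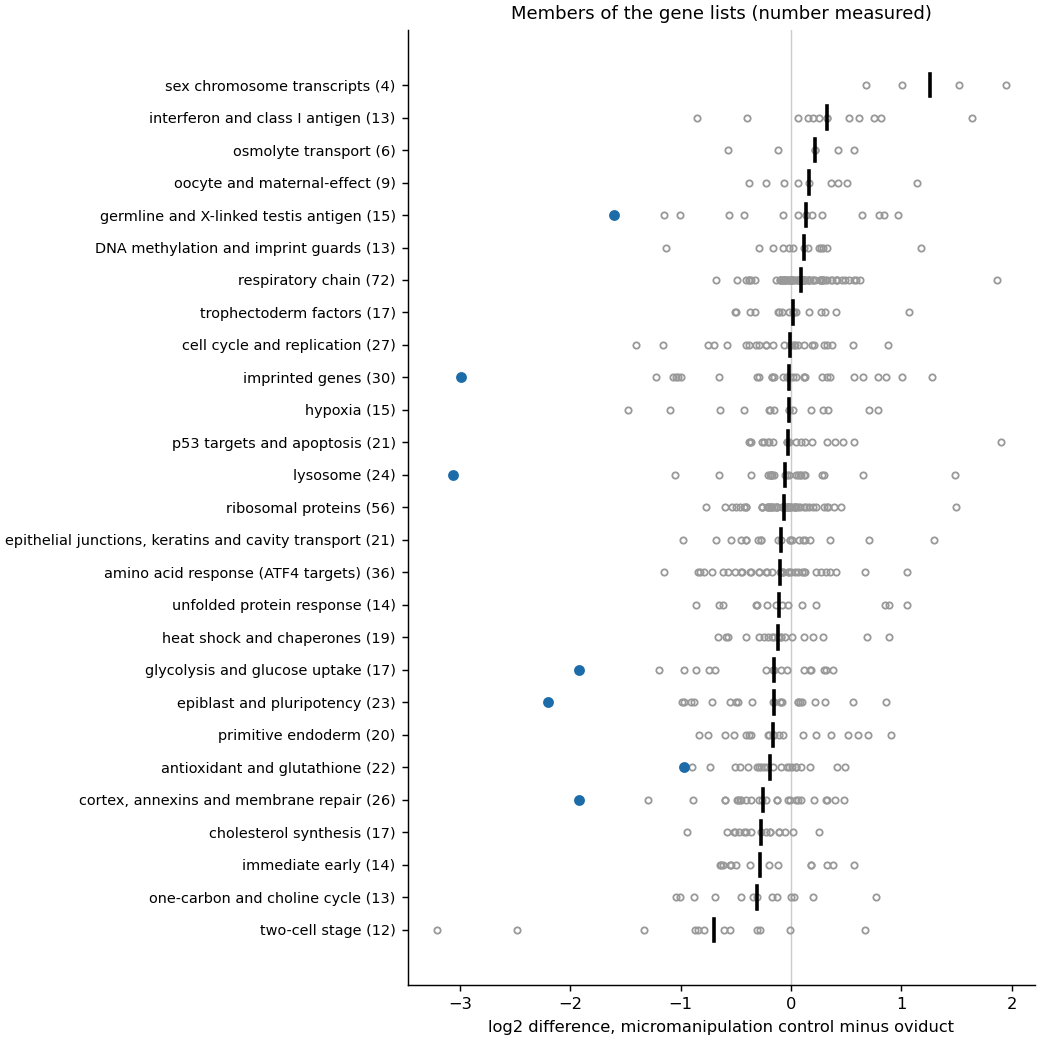
Log2 difference (control minus oviduct) of the measured members of 27 gene lists, with 1 circle per gene, filled where it passed, and a bar at the list's median. Filled circles are in 7 lists, 1 in each and all below 0, and the lowest and highest medians are -0.70 and 1.26.

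The same fit set the control directly against the other groups, in comparisons that share the control arrays. Against KSOM(aa), 0 units passed in limma, and 426 (4.91%) had an unadjusted p under 0.05. KSOM(aa) had 2 arrays that lay 0.809 apart, and 0 passed under every alternative run. Against HTF/MultiBlast 202 passed (2.33%), 79 higher (0.911%) and 123 lower (1.42%) in the control, and against ISM1/ISM2 1455 (16.8%), 668 higher (7.71%) and 787 lower (9.08%). Of the 37 units of the oviduct comparison, 0, 5 and 15 passed against KSOM(aa), HTF/MultiBlast and ISM1/ISM2. Several of the 37 also lay apart from oviduct in the culture groups, in comparisons that share the oviduct arrays. *Crym* had means of 6.78 in KSOM(aa), 7.38 in HTF/MultiBlast and 8.02 in ISM1/ISM2, against 7.14 in the control and 9.18 in oviduct. In the same order *Hoxc6* had 6.99, 6.71, 5.87, 6.6 and 4.77, and *Bmp4* 7.3, 6.82, 5.52, 6.69 and 8.89. For others, such as *Ndrg4* (6.98, 6.36, 6.43, 7.79 and 6.34), the culture means lay nearer to oviduct.

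*Phlda2* had its lowest group mean in the control. Its mean was 7.98 ± 0.33 (SD, n = 3) there, 9.18 in KSOM(aa), 9.45 in ISM1/ISM2, 10.97 in oviduct and 11.56 in HTF/MultiBlast. The differences from HTF/MultiBlast (-3.57 ± 0.29, adjusted p = 8.76e-05) and ISM1/ISM2 (-1.47 ± 0.29, adjusted p = 0.00338) passed, and that from KSOM(aa) did not (-1.20 ± 0.32, adjusted p = 0.891). *Sod1* was lower than in HTF/MultiBlast (-0.97 ± 0.18, adjusted p = 0.0117) and ISM1/ISM2 (-1.62 ± 0.18, adjusted p = 4.72e-05). *Tex19.2* was also lower than in both, by 2.13 and 3.91. *Zfp943* had means of 8.26, 8.27 and 8.72 in KSOM(aa), HTF/MultiBlast and ISM1/ISM2 against 8.61 in the control and 5.79 in oviduct, although the 2 KSOM(aa) arrays differed (SD 1.77). *Gata6* had 12.26, 12.15 and 11.93 in these groups, 12.26 in the control and 11.35 in oviduct. *Ctsll3* had 9.45 ± 0.43 in the control, 8.96 in KSOM(aa), 9.88 in HTF/MultiBlast, 5.14 in ISM1/ISM2 and 12.51 in oviduct. Its control mean thus lay between oviduct and ISM1/ISM2, above the latter by 4.32 ± 0.52 (adjusted p = 9.92e-05).

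Genes of the amino acid response list were also compared with the culture groups. Against KSOM(aa) none of the 36 measured passed, with 28 values above 0, 8 below and a median of 0.24. Of the 36, 29 passed as higher in the control than in ISM1/ISM2 and 0 as lower, against 7.71% and 9.08% of all units, with 36 values above 0 and a median of 1.82. Against HTF/MultiBlast 8 passed as higher and 0 as lower, beside 0.911% and 1.42% of all units, with 35 values above 0, 1 below and a median of 0.74. *Slc7a3* was detected on no ISM1/ISM2 array and was at least 49.7-fold higher in the control (11.01 ± 0.31 against 4.88 ± 0.3, SD, n = 3, adjusted p = 8.25e-08). *Chac1*, which degrades glutathione, had 4.94 ± 0.38 (adjusted p = 3.59e-06) against ISM1/ISM2. *Bhmt*, which makes methionine from betaine, was lower than in HTF/MultiBlast (-3.26 ± 0.31, adjusted p = 0.000167) and ISM1/ISM2 (-3.34 ± 0.31, adjusted p = 1.62e-05). Of 20 primitive endoderm genes, 13 passed as higher than in ISM1/ISM2 and 0 as lower, with 18 values above 0 and 2 below, both of the latter at an unadjusted p under 0.05. Against HTF/MultiBlast 7 passed as higher and 0 as lower, again with 18 values above 0 and 2 below. Against KSOM(aa) none of the 20 passed, with 14 values above 0 and 6 below.

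**Figure D5:**
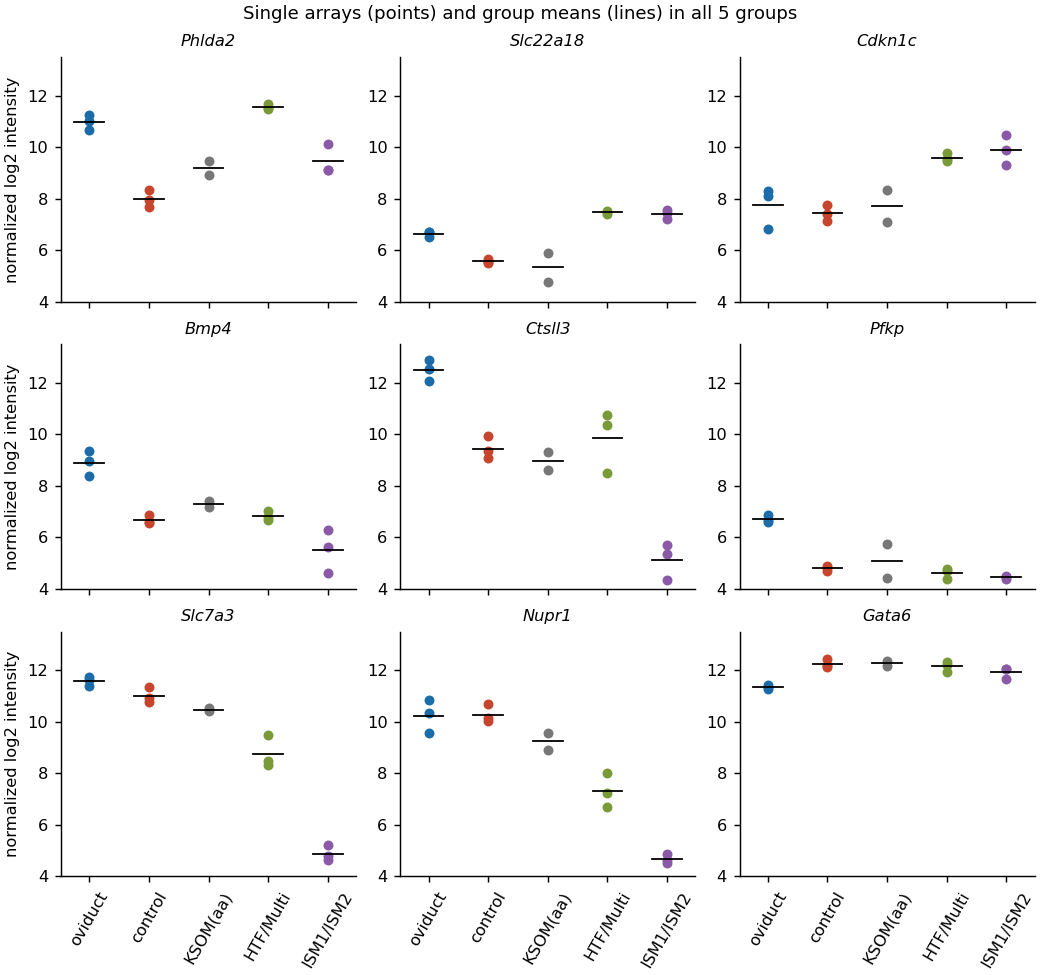
Normalized log2 intensity of 9 genes on single arrays (points) with group means (lines) in the 5 groups. *Phlda2* is lowest in the control (7.98), *Slc7a3* and *Nupr1* are lowest in ISM1/ISM2 (4.88 and 4.67), and *Gata6* is lowest in oviduct (11.35).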

How the data were processed

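RNA of 14 mouse blastocyst samples was hybridised to Illumina bead arrays, from 150 ng of total RNA per the labels' protocols. The submitters' processing notes name BeadStudio 3.2, RMA and lumi, without their order. A deposited table gave a probe intensity and a detection p-value per array, and a separate one the authors' normalized log2 values. The authors' log2 values had a median of 2.89 on every array and a rank correlation of 1 with the intensities, and their centring is not given in the sources used here. Intensities were background-corrected and quantile-normalized with neqc (limma 3.58.1, R 4.3.3, offset 16, negative controls inferred from detection p-values). Probes with detection p under 0.01 on at least 2 arrays were kept. A linear model over all 5 groups was fitted with lmFit and eBayes, p-values were adjusted by Benjamini-Hochberg over 8669 units, and 0.05 was the threshold. The fit was run on simulated data with independent arrays and 1 spread per unit in all groups. That run could not check unequal spreads between groups or controls that repeat 1 preparation. Up to 15 rises and 15 falls by size and up to 4 genes per list were named. Members and lists were chosen with earlier results of these data known. Array number limits the precision. Figures were drawn with matplotlib 3.10.9.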

Additional observations from a re-analysis of the deposited data

How the results depend on the processing

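Of the 37 units, none passed in every alternative and none reversed direction. The count was 15 with the authors' values, 24 with all probes kept (11 higher and 13 lower, 45.8% higher against 35.1%), 23 with probes detected on all arrays of the groups compared, 3 with only these groups in the fit and 490 with array weights (54.3% higher). It was 0 with the controls averaged, 2 with oviduct replicates 1 and 3 both left out and 174 without KSOM(aa) in the fit (58% higher), both of the latter chosen after seeing the data. It was 25 with scaling to the 75th percentile, 40 with an offset of 50, 41 with every probe as its own unit and 37 with low signals raised. Leaving out 1 array gave 1 to 140. The counts against HTF/MultiBlast and ISM1/ISM2, 202 and 1455, became 804 and 2277 with only the groups compared, 1409 and 2828 with array weights, and 2 and 286 with the controls averaged. Without 1 array they ran from 66 to 298 and from 926 to 1715. The causes were not tested. Same-numbered control and oviduct arrays deviated with correlations of 0.14, -0.06 and 0.09, so the numbers were not taken as pairs, and a replicate block gave 29 units. Among 2585 alternative values of named genes, 2208 kept direction and side of the threshold, 308 no longer passed, 54 newly passed and 15 reversed, none of them a passing gene. The reversed values were 0.14 for *Gata3* with 75th percentile scaling; -0.07 for *Nupr1* and -0.08 for *Igf2* with array weights; -0.16 for *Nupr1* and -0.20 for *Igf2* without control replicate 3; -0.30, -0.03 and -0.20 for *Nupr1*, *Igf2* and *Mest* without oviduct replicate 3. *Cdx2* had -0.01 without control replicate 1, and *Cdx2* and *Sox17* had -0.02 and -0.14 without oviduct replicate 1. When oviduct was represented by replicate 2 alone, *Nupr1* had -0.05, *Cdx2* -0.01, *Gdf9* -0.03 and *Slc38a4* -0.04. With 1 array left out these genes ran from -0.30 to 0.34 (*Nupr1*), -0.20 to 0.23 (*Igf2*), -0.20 to 0.74 (*Mest*), -0.14 to 0.54 (*Sox17*) and -0.02 to 0.05 (*Cdx2*). Of 486 alternative list medians 28 moved by more than 1 SE. That SE belongs to the control minus oviduct difference of the list's median level per array. Probes near background limit the low genes, and bounds are given only where no array of a group had detection. Genes detected on part of a group's arrays, such as *Hoxc6*, *Kcnv2*, *Scnn1b*, *S100a9* and *Samd4b*, have differences without a bound.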
